A study of Bos grunniens x Bos taurus and Bos grunniens with 6 samples.

Results

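The genes described here carry the cilia and flagella associated protein (CFAP), radial spoke head (RSPH) and dynein regulatory complex (DRC) symbols. Every row of the deposited expression table with a symbol made of CFAP, RSPH or DRC and a number, with or without a closing letter, was taken, which gave 41 of 18918 genes. They comprised 31 CFAP, 7 RSPH and 3 DRC rows with 40 distinct symbols, since CFAP43 stood on 2 rows. The rule reads the symbols only, but this family was picked with earlier results of these data known. Genes of the same structures that the annotation lists under other names, such as GAS8 or WDR66, were therefore left out and are described separately as partners.

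Testis RNA of 3 yak (Gannan breed, libraries Yak8, Yak9 and Yak10) was compared with that of 3 cattle-yak (libraries TES5, TES6 and TES7), the first-generation sons of Jersey bulls and Gannan yak cows. All animals were male and 4 years old, and each library came from 1 animal. The labels give castration as the source of the testes, whereas the study's methods give castration for cattle-yak and euthanasia for yak, and the groups were kept in different counties, so place and way of collection cannot be told apart from the group. By the study's methods, tissue blocks from the middle of the testis were taken, and no sorting of cells is described. Values are FPKM, fragments per kilobase of gene model scaled to the fragments on genes in the library. These came to 11175100 to 11834987 per library in cattle-yak and 12991641 to 13136129 in yak, so that 1 fragment on 1 kb stood for 0.0761 to 0.0895 FPKM. Depth thus went with the group. The study mapped both groups to a yak assembly and gives a lower mapped share of reads in cattle-yak, which cannot be told apart from the group either.

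The axoneme, the microtubule core of motile cilia and of the sperm tail, is made of outer doublet microtubules around a central pair. Dynein arms on the doublets drive sliding, radial spokes carry signals between the central pair and the arms, the nexin-dynein regulatory complex (N-DRC) links neighbouring doublets, and inner proteins line the inside of the doublet wall. Most CFAP, RSPH and DRC proteins are parts of these structures or help to assemble them. In the testis they are known for building the sperm flagellum, and many of their genes are first transcribed in spermatocytes and more strongly in spermatids. The table's own annotation reflected this in part, with a cilium term on 33 of the 41 genes and an axoneme term on 15, while 1 of them carried a term for spermatogenesis.

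Nearly the whole family was lower in cattle-yak. Of the 41 genes, 40 passed the minimum of a mean of 0.5 FPKM over the 6 animals and were tested, and 37 of them (92.5%) were called lower, which required of limma on log2 (FPKM + 1) a difference of more than 1 with an adjusted p below 0.05. Among all 15042 genes tested, 20.8% were called lower. No member was called higher, against 33.4% of all genes tested, and none was higher at an unadjusted p under 0.05 or with limma-voom on whole fragments. The median log2 fold change of the 40 tested members was −2.82, while that of all genes tested was 0.51, so the members lay 3.33 below the centre of the table. The split of all genes rested on the scaling, with 3136 called lower and 5023 higher as deposited against 4176 and 2660 with median-of-ratios size factors, under which 39 members were lower and their median lay 3.35 below that of all genes. In 39 of the 40 tested members all 3 cattle-yak values lay below all 3 yak values, an arrangement found in 30.2% of all genes tested. In bulk testis tissue, fewer cells of a type and less RNA per cell cannot be told apart.

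On the FPKM scale the tested members had a median group mean of 29.5 in yak and 2.80 in cattle-yak. The level left in cattle-yak, as a percentage of the yak mean, had a median of 11.1% over the tested members. Over the members called lower the median was 10.9%, close to the 13.2% over all genes called lower. The level left was under 5% in 7 of the tested members, under 10% in 17, under 20% in 31 and under 50% in 38. Summed over all 41 genes, the members came to 467.9 ± 114.3 FPKM in the cattle-yak animals against 2403 ± 127.5 in the yak animals (SD, n = 3 each). The abundant genes CFAP298 and CFAP36 made up much of these sums. Without them the cattle-yak sum was 214.7 ± 58.2 FPKM and the yak sum 1454 ± 5.86 (SD, n = 3 each).

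**Figure D1:**
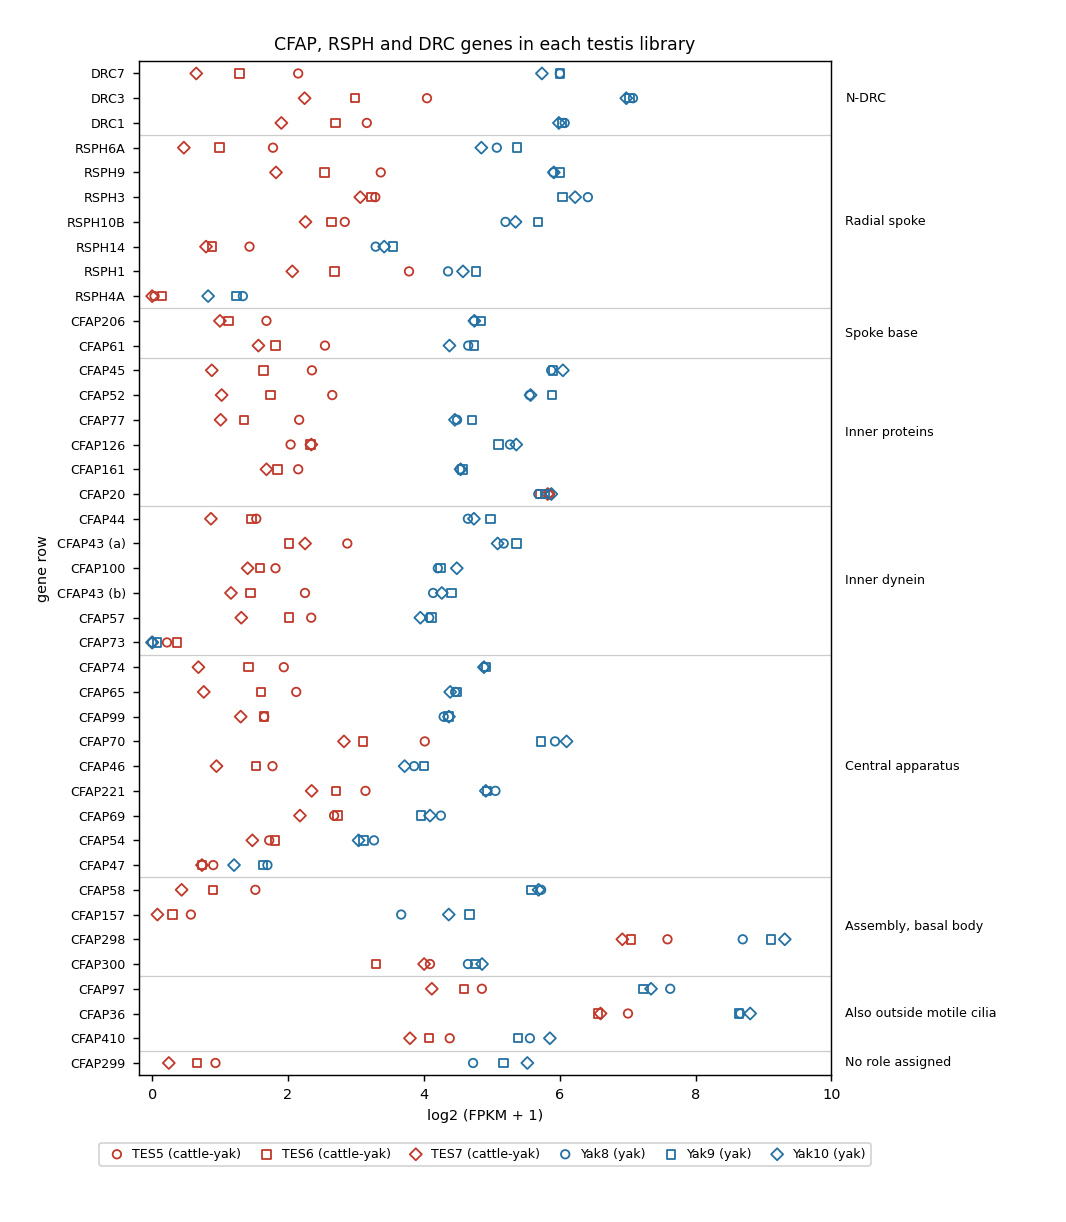
Each row is 1 gene, each symbol 1 library, and the horizontal axis gives log2 (FPKM + 1); cattle-yak is red and yak blue, the rows are grouped by role, and CFAP43 appears as its 2820-base (a) and its 2025-base (b) row. The groups are apart in 39 of the 40 tested members and overlap in CFAP20.

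The N-DRC genes were called lower in 3 of 3 cases, with a median log2 fold change of −3.94. DRC3 (ENSBGRG00000015588), a subunit of the linker between doublets, was the most abundant, with 134 FPKM in Yak8, 130 in Yak9 and 125 in Yak10. Its cattle-yak libraries held 15.5 FPKM in TES5, 6.90 in TES6 and 3.74 in TES7. The yak values of DRC3 were close together, while the cattle-yak values were far lower and spread 4.15-fold between TES5 and TES7 (log2 fold change −3.94, standard error 0.38, adjusted p = 2.3e-05, limma). DRC7 (ENSBGRG00000016618), also a linker subunit, had 63.0, 63.2 and 52.3 FPKM in Yak8, Yak9 and Yak10 and 3.44, 1.44 and 0.568 in TES5, TES6 and TES7. This left 3.05% of the yak mean, with a log2 fold change of −4.55 (adjusted p = 4.8e-06, limma). DRC1 (ENSBGRG00000011341), which belongs to the base that holds the complex on the doublet, was at 5.39 ± 2.60 FPKM in cattle-yak (SD, n = 3), or 8.36% of its yak mean of 64.4 ± 1.92.

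All 7 radial spoke genes were called lower, with log2 fold changes from −4.02 to −1.07 and a median of −2.83. RSPH3 (ENSBGRG00000026600), a protein of the spoke stalk that anchors protein kinase A, had the highest level, with 84.3, 64.7 and 73.9 FPKM in Yak8, Yak9 and Yak10. In cattle-yak it had 8.74 FPKM in TES5, 8.36 in TES6 and 7.36 in TES7, so all cattle-yak animals stood at about the same low level (log2 fold change −3.03, standard error 0.13, adjusted p = 3.8e-07, limma). RSPH9, a spoke head subunit, kept 9.18% of its yak mean of 60.5 FPKM. RSPH10B and RSPH14 kept 12.02% and 11.2% of yak means of 41.97 and 9.70 FPKM.

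RSPH4A and RSPH6A are paralogs, RSPH4A being the spoke head subunit known from airway cilia and RSPH6A the one known from testis. RSPH6A (ENSBGRG00000019805) had 32.7, 40.4 and 27.8 FPKM in Yak8, Yak9 and Yak10, and 2.43, 0.990 and 0.381 in TES5, TES6 and TES7. RSPH4A (ENSBGRG00000005878) was low even in yak, at 1.52 FPKM in Yak8, 1.37 in Yak9 and 0.770 in Yak10, and had 0.0249 and 0.105 FPKM in TES5 and TES6 and none in TES7. Per length, RSPH6A stood above RSPH4A in every library of both groups. Behind the RSPH4A values were 68, 61 and 34 fragments in the yak libraries and 1, 4 and 0 in TES5, TES6 and TES7. The log2 fold change was −4.02 for RSPH6A (adjusted p = 6.8e-06, limma) and −1.07 for RSPH4A (adjusted p = 6.6e-04, limma), and the pseudocount of 1 limits how far the low RSPH4A could fall on this scale. Their shares of the yak mean were close, 3.55% for RSPH4A and 3.77% for RSPH6A, and the gap between these fold changes did not hold on other scales. With a pseudocount of 0.01 RSPH4A was at −5.11 and RSPH6A at −5.08, and with limma-voom they were at −4.96 and −5.03. On the scale with a pseudocount of 1, RSPH4A came to −0.97 without Yak8, −0.99 with quantile normalization and −0.98 when the libraries were centred on spermatocyte markers, and was then not called.

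RSPH1 (ENSBGRG00000018504), a further spoke head subunit, was the radial spoke gene with the highest share left in cattle-yak. It had 19.5, 26.3 and 22.8 FPKM in Yak8, Yak9 and Yak10, and 12.7 in TES5, 5.43 in TES6 and 3.18 in TES7. Every cattle-yak animal was below every yak animal, but TES5 reached 55.8% of the yak mean and TES7 13.9%. The log2 fold change of −1.72 therefore had a wide standard error of 0.38 (adjusted p = 2.9e-03, limma).

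At the base of the spokes, CFAP206 (ENSBGRG00000022134) and CFAP61 (ENSBGRG00000006111), which dock spokes on the doublet, were both called lower. CFAP206 had 25.7, 27.6 and 25.8 FPKM in Yak8, Yak9 and Yak10 and 2.21, 1.18 and 0.997 in TES5, TES6 and TES7 (log2 fold change −3.50, adjusted p = 1.1e-06, limma). CFAP61 kept 13.4% of its yak mean of 23.2 FPKM. In the partner list, WDR66 and MAATS1, the older symbols of CFAP251 and CFAP91 in the same complex, were lower too, with log2 fold changes of −1.70 and −2.54.

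Among the inner proteins of the doublet wall, 5 of 6 were called lower and CFAP20 was not. CFAP45 (ENSBGRG00000013191) was the most abundant in yak and fell furthest, from 57.6, 58.8 and 65.1 FPKM in Yak8, Yak9 and Yak10 to 4.10, 2.12 and 0.837 in TES5, TES6 and TES7 (log2 fold change −4.32, standard error 0.32, adjusted p = 5.3e-06, limma). CFAP52, which lies beside CFAP45 in the doublet, kept 5.75% of a yak mean of 50.2 FPKM. CFAP77, CFAP126 and CFAP161 kept 8.96%, 10.1% and 12.3%. CFAP126, also known as Flattop, was the only called member with its lowest cattle-yak value in TES5, at 3.11 FPKM, with 4.03 and 4.07 in TES6 and TES7. These values rest on 49, 60 and 63 fragments in TES5, TES6 and TES7, and their order was not tested.

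CFAP20 (ENSBGRG00000014585), a protein of the inner junction between the tubules of a doublet, which is made in many tissues, was at the same level in both groups as deposited. It had 50.4, 54.0 and 57.7 FPKM in Yak8, Yak9 and Yak10, and 56.9, 51.6 and 55.6 in TES5, TES6 and TES7. The groups overlapped, with a log2 fold change of 0.02 (standard error 0.10, adjusted p = 0.867, limma). Its sign rested on the scaling and on single animals, since the value was −0.59 (adjusted p = 8.9e-04, limma) with median-of-ratios size factors, −2.14 relative to Sertoli cell markers, −0.01 without TES5 and −0.03 without Yak8.

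The proteins that tie or modify inner dynein arms gave 5 tested rows, all called lower. CFAP44 (ENSBGRG00000001051), part of the tether of an inner dynein, had 24.1, 30.5 and 25.7 FPKM in Yak8, Yak9 and Yak10 and 1.89, 1.75 and 0.822 in TES5, TES6 and TES7 (log2 fold change −3.50, adjusted p = 1.5e-06, limma). Its partner in the tether, CFAP43, is listed on 2 rows, whose reads may have been split between them, so each value is uncertain. The row ENSBGRG00000012602 was at 35.1, 40.2 and 32.9 FPKM in Yak8, Yak9 and Yak10 and at 6.32, 3.05 and 3.76 in TES5, TES6 and TES7. The row ENSBGRG00000012536 was lower in all of them, at 16.6, 20.2 and 18.2 FPKM in the yak libraries and 3.76, 1.72 and 1.23 in the cattle-yak ones. Although their levels differed, the rows kept similar shares of the yak mean, 12.1% and 12.2%. CFAP100 and CFAP57 kept 10.9% and 18.4%.

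CFAP73, the partner of CFAP100 in the modifier of inner arms, was the only member below the minimum for the test. It had 3, 5 and 0 fragments in TES5, TES6 and TES7 and 0, 1 and 0 in Yak8, Yak9 and Yak10. The yak libraries were thus under the 3 fragments taken as the floor, and no direction was drawn.

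For the central apparatus 8 of 9 genes were called lower, with a median log2 fold change of −2.44. CFAP70 (ENSBGRG00000025248) was the most abundant, at 59.98, 51.8 and 67.6 FPKM in Yak8, Yak9 and Yak10 against 15.1, 7.61 and 6.08 in TES5, TES6 and TES7 (log2 fold change −2.60, adjusted p = 4.4e-05, limma). CFAP74 (ENSBGRG00000024012) fell furthest, from 28.6, 29.2 and 28.5 FPKM in yak to 2.83, 1.67 and 0.603 in cattle-yak (log2 fold change −3.55, adjusted p = 7.7e-06, limma). CFAP74 belongs with CFAP46, CFAP54 and CFAP221 to 1 projection of the central pair, and these subunits did not keep the same share of their yak levels. CFAP74 kept 5.92%, CFAP46 12.8%, CFAP221 19.2% and CFAP54 28.0%. In yak the mean of CFAP74, 28.8 FPKM, stood far above that of CFAP54, 7.82, and it was higher in every yak library. Among the cattle-yak animals, CFAP74 was above CFAP54 in TES5, at 2.83 and 2.30 FPKM, and below it in TES6, at 1.67 and 2.50, and in TES7, at 0.603 and 1.78. The differences between these subunits were not tested.

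CFAP65 and CFAP99 kept 9.75% and 9.92% of their yak means, and CFAP69, which is also needed in olfactory cilia, kept 29.9%. CFAP47 (ENSBGRG00000008170), a binding partner of CFAP65, was low in both groups, with 2.24, 2.10 and 1.31 FPKM in Yak8, Yak9 and Yak10 and 0.866, 0.659 and 0.662 in TES5, TES6 and TES7. The groups did not overlap, and the log2 fold change of −0.72 (adjusted p = 5.6e-03, limma) missed only the threshold of 1. With a pseudocount of 0.1 it was −1.23 and called.

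Of the 4 assembly and basal body genes, 3 were called lower and CFAP300 was not. CFAP58 (ENSBGRG00000013270), needed for the sperm flagellum and its midpiece, had 51.9, 47.0 and 50.6 FPKM in Yak8, Yak9 and Yak10 and 1.87, 0.858 and 0.351 in TES5, TES6 and TES7. Its log2 fold change of −4.72 (standard error 0.25, adjusted p = 9.9e-07, limma) was the most negative of the 40 tested members on this scale, whereas CFAP299 was the most negative with a pseudocount of 0.1 (−5.89) and without Yak8 (−4.74), and CFAP157 with a pseudocount of 0.01 (−6.50) and in voom (−6.33). CFAP157 (ENSBGRG00000005935), a basal body protein, kept the smallest share of its yak mean, 1.38%, with 11.7, 24.5 and 19.6 FPKM in yak and 0.485, 0.228 and 0.0549 in cattle-yak. These cattle-yak values rest on 9, 4 and 1 fragments in TES5, TES6 and TES7.

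CFAP298 and CFAP300 are both cytoplasmic factors for the assembly of dynein arms. CFAP298 (ENSBGRG00000000124) was the most abundant member, with 413, 552 and 635 FPKM in Yak8, Yak9 and Yak10 and 191, 131 and 120 in TES5, TES6 and TES7 (log2 fold change −1.85, adjusted p = 5.6e-05, limma). CFAP300 (ENSBGRG00000015991) was at 24.1, 26.1 and 28.0 FPKM in Yak8, Yak9 and Yak10 and at 16.0, 8.80 and 15.0 in TES5, TES6 and TES7. All cattle-yak animals were lower, but the log2 fold change of −0.96 (adjusted p = 2.6e-03, limma) was just short of the threshold. It passed without TES5 (−1.11), without TES7 (−1.06), without Yak8 (−1.01) and with median-of-ratios size factors (−1.54). CFAP300 passed also with pseudocounts of 0.1 (−1.01) and 0.01 (−1.02), quantile normalization (−1.15), Sertoli centring (−3.12) and voom with or without size factors. With TPM scaling (−0.96), spermatocyte centring (−0.86) and without TES6, Yak9 or Yak10 it was not called. TES6, not TES7, had the lowest CFAP300 value.

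The 3 genes grouped here as known also outside motile cilia were all called lower, and kept 13.3% to 33.7% of their yak means. The grouping was made from general knowledge and is least certain for CFAP97, which had the lowest of these shares. CFAP36 (ENSBGRG00000018258), which binds the small GTPase ARL3 in primary cilia, had 402, 397 and 446 FPKM in Yak8, Yak9 and Yak10 and 127, 93.6 and 96.04 in TES5, TES6 and TES7 (log2 fold change −1.98, adjusted p = 3.1e-06, limma). CFAP97 (ENSBGRG00000019269) fell from 197, 149 and 161 FPKM to 27.9, 23.1 and 16.3 (log2 fold change −2.88, adjusted p = 3.0e-06, limma). CFAP410 (ENSBGRG00000023037), a protein of the ciliary base also known from photoreceptors, was at 46.2, 40.8 and 56.9 FPKM in the yak libraries and 19.8, 15.8 and 12.9 in the cattle-yak ones. Even the lowest yak value of CFAP410 was above the highest cattle-yak value (log2 fold change −1.52, adjusted p = 7.1e-05, limma). CFAP299 (ENSBGRG00000024488), to which no role in the axoneme was assigned, kept 1.58%, with 25.4, 35.0 and 45.0 FPKM in Yak8, Yak9 and Yak10 against 0.908, 0.577 and 0.185 in TES5, TES6 and TES7.

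**Figure D2:**
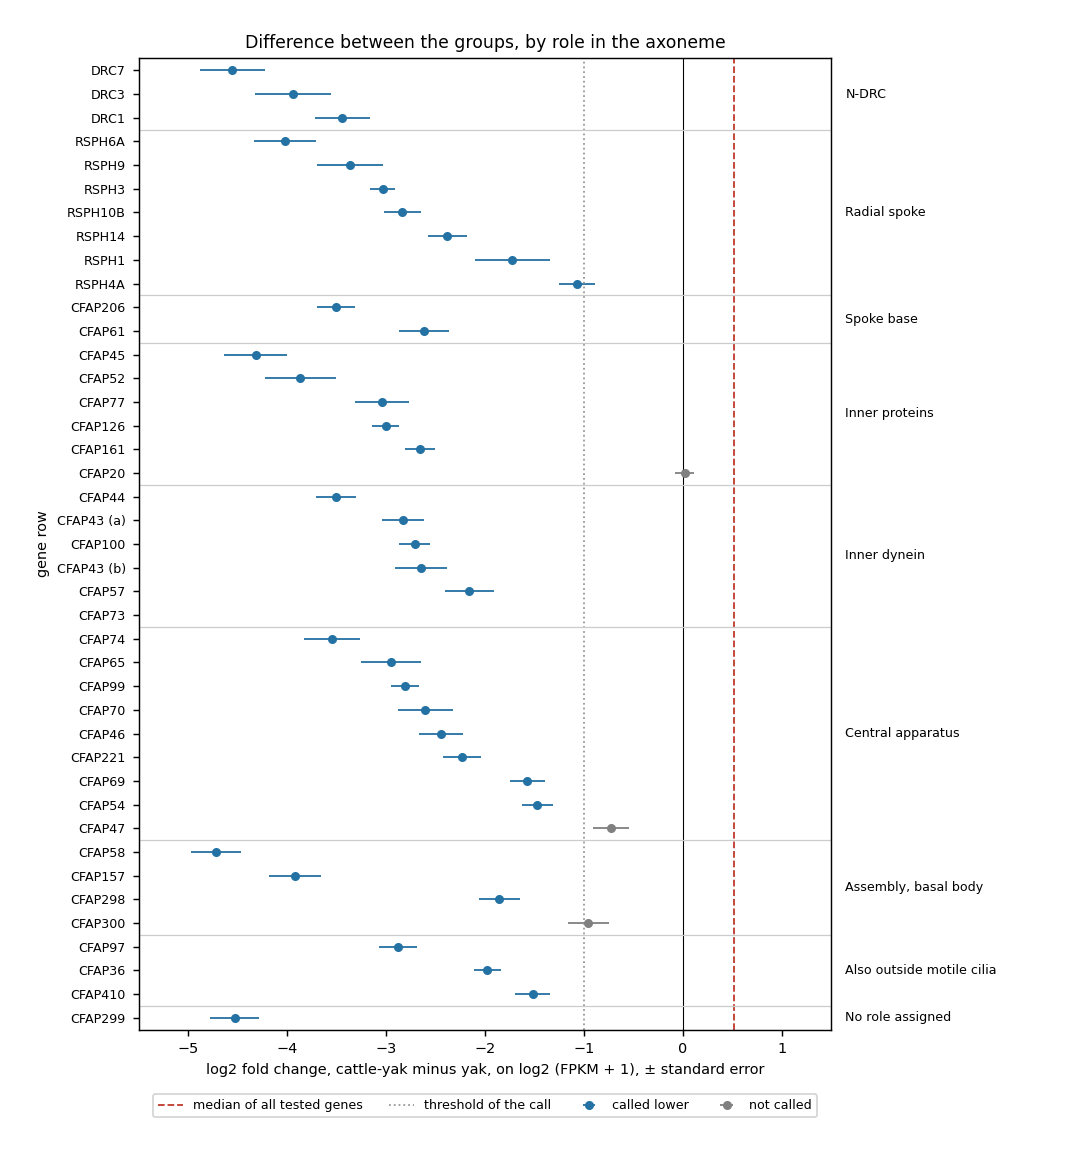
The horizontal axis gives the log2 fold change of each member (cattle-yak minus yak, on log2 FPKM + 1) with its standard error from limma, by role; blue marks the 37 genes called lower and grey the 3 not called (CFAP20, CFAP47 and CFAP300). The dashed line is the median of all 15042 genes tested, 0.51, and every member lies to its left; CFAP73 was not tested and has no point.

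The cattle-yak animals were not alike in these genes. Of the 40 tested members, 36 were highest in TES5 and 34 lowest in TES7, and 31 had TES5 on top, TES6 between and TES7 at the bottom. The last arrangement was seen in 19.2% of all genes tested and in 45.4% of the 3136 genes called lower. The median share of the yak mean over the tested members was 15.4% in TES5, 10.7% in TES6 and 8.03% in TES7. In the 36 called members with a value above 0 in TES7, TES5 had a median of 2.48 times the TES7 value, and the ratio ran from 0.762 for CFAP126 to 8.82 for CFAP157. Over the 2855 of all genes called lower that had a value above 0 in TES7, the median ratio was 1.37. The coefficient of variation was higher in cattle-yak than in yak in 37 of the 40 tested members, with medians of 45.1% and 10.3%, while over all genes tested it was higher in cattle-yak in 52.7%. Over all genes called lower, its median in cattle-yak was 29.7%. With TES5, TES6 or TES7 left out in turn, 38, 37 and 38 members were called lower, and CFAP300 was the member gained without TES5 and without TES7.

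**Figure D3:**
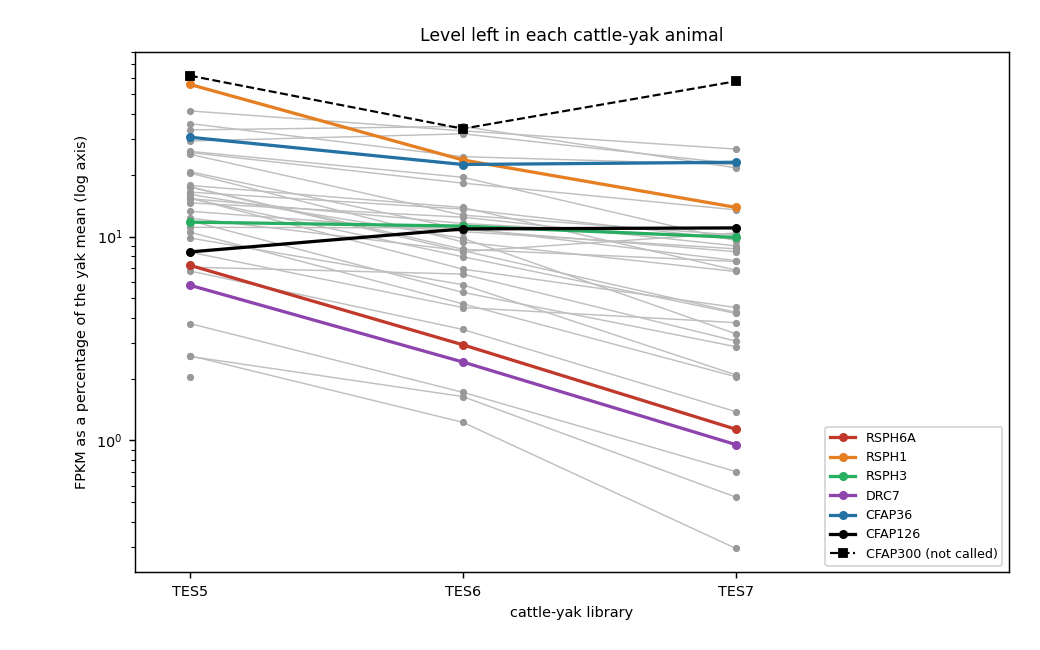
Each line is 1 gene, with its FPKM in TES5, TES6 and TES7 as a percentage of the yak mean on a log axis; grey lines are the genes called lower, and 6 of them and CFAP300 are coloured or dashed. The animals have no order, and lines only join the values of a gene; RSPH6A and DRC7 are far apart between TES5 and TES7, RSPH3 is nearly level, and RSPH4A, at 0 in TES7, is drawn as points only.

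Other genes of the axoneme, from lists of its known proteins under other symbols, were lower in most cases too. Of 45 such genes in the table, all tested, 42 were called lower, none higher and 3 were not called, with a median log2 fold change of −2.98. Among all 15042 genes tested, 20.8% were called lower and 33.4% higher, with a median of 0.51. The 3 uncalled genes had negative values as well, and none of the 45 was called higher under any scaling or with limma-voom, where 40 to 45 were called lower. The 45 came with centring on the Sertoli markers, under which 10770 of all 15042 genes were called lower and 38 higher. The 40 came with centring on the spermatocyte markers, under which 2930 of all genes were called lower.

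Of the N-DRC subunits under other names, 7 of 9 were lower, against 20.8% of all genes tested. CCDC65 and TCTE1, the subunits also called DRC2 and DRC5, had the lowest log2 fold changes, −3.72 and −3.70. IQCA1, with 7.73 FPKM in yak and 5.61 in cattle-yak, and CCDC153, with 7.52 and 3.56, had log2 fold changes of −0.41 and −0.91 and were not called. GAS8, the DRC4 subunit that is also found in other cells, fell by 1.39 on the log2 scale.

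All 14 radial spoke partners were lower, against 20.8% of all genes tested, led by MORN3 at −5.72 and DYDC2 at −4.64. The 8 central apparatus partners were lower as well, with SPAG17 at −4.44 and SPAG16 at −3.65 as the lowest. Of the inner proteins, 11 of 12 were lower, and TEKT2 and TEKT5, tektin filament proteins of the doublet, had −5.79 and −5.75. EFHC2 was not called, with 6.75 FPKM in yak and 5.28 in cattle-yak (log2 fold change −0.30, adjusted p = 0.093, limma). CCDC39 and CCDC40, whose proteins form the ruler that sets the spacing of spokes and arms, had −2.69 and −3.68.

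The transcription regulators of ciliary and spermatid genes were lower in 7 of 7 cases, against 20.8% of all genes tested, with a median of −2.95. CREM, a regulator of spermatid genes, and RFX2, a regulator of ciliary genes in spermatids, had the lowest values, −4.14 and −3.67. CREM stands on 2 rows, of which the more abundant is given and is uncertain. FOXJ1, which governs motile cilia in many tissues, had 5.90, 9.32 and 4.54 FPKM in Yak8, Yak9 and Yak10 and 0.901, 0.440 and 0.141 in TES5, TES6 and TES7. FOXJ1 thus had the same order among the cattle-yak animals as most members, an order also seen in 45.4% of all genes called lower. RFX2, CREM, SOX30 and TCFL5 had this order too, while RFX1 and RFX3 were highest in TES6. A link between regulators and members was not tested.

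Markers of cell types moved with the groups too, beside 20.8% of all genes tested called lower and 33.4% called higher. Spermatocyte markers summed to 322 to 373 FPKM in yak and 232 to 411 in cattle-yak, with 1 of 8 called higher, SYCP3, and 7 not called. This list rested on the scaling, with 3 of 8 called lower and none higher with median-of-ratios size factors. All 8 of them had their lowest cattle-yak value in TES6, as did 5 of the 40 tested members, CFAP20, CFAP36, CFAP47, CFAP300 and 1 row of CFAP43. Round spermatid markers summed to 1022 to 1131 FPKM in yak and 6.98 to 37.2 in cattle-yak, with 5 of 5 called lower and all highest in TES5. Elongating spermatid markers summed to 8855 to 10862 FPKM in yak and 15.4 to 75.1 in cattle-yak, with 6 of 6 called lower, highest in TES5 and lowest in TES7. The median share of the yak mean was 88.2% for the spermatocyte list, 1.13% for the round and 0.421% for the elongating spermatid list, and that of the members, 11.1%, lay between these values. The spermatocyte list held SYCP1, SYCP2, SYCP3, SMC1B, HORMAD1, DMC1, TEX101 and MEIOB only, so its share need not hold for other spermatocyte genes. MEIOB kept 66.6% of its yak mean and was not called (adjusted p = 0.063, limma). The study reports the spermatocyte markers CCNA1 and PIWIL1, and the meiosis genes M1AP, MEIOB, STAG3, TEX14 and TEX15, as lower in cattle-yak. Its histology describes reduced numbers of primary spermatocytes. The part of cell composition in the members' difference was not tested.

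**Figure D4:**
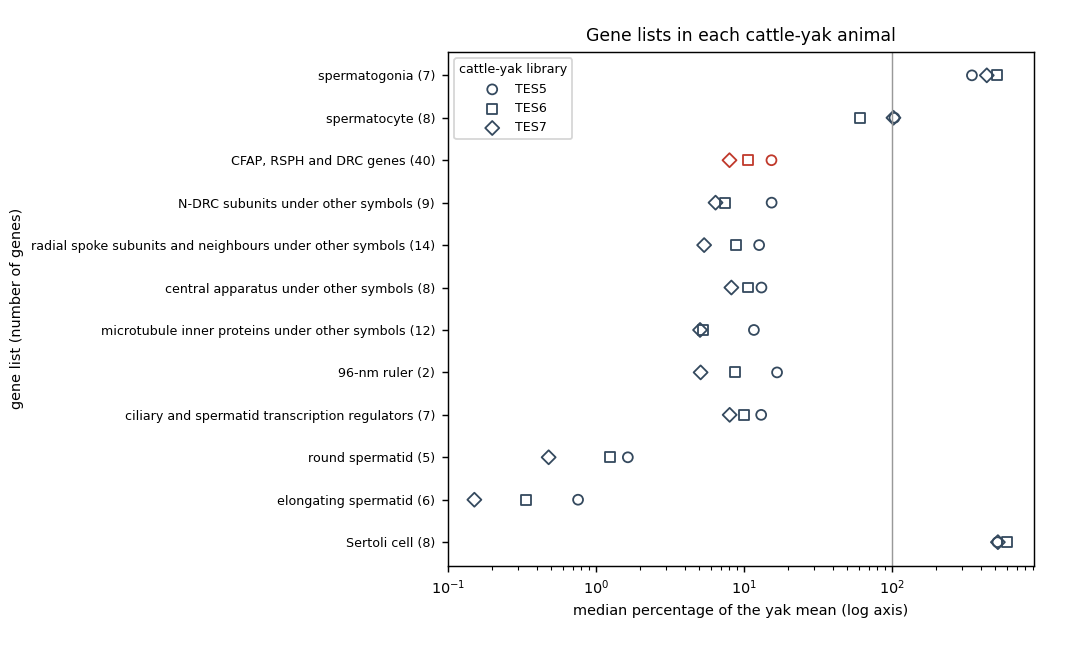
For each gene list the horizontal axis gives the median over its genes of the FPKM in TES5 (circle), TES6 (square) and TES7 (diamond) as a percentage of the yak mean, on a log axis; the vertical line marks 100%. The members (red) lie with the other axonemal lists between 5.08% and 16.8%, below the spermatocyte and above the spermatid markers.

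Somatic markers stood the other way, with 8 of 8 Sertoli, 6 of 6 Leydig and 5 of 5 myoid cell markers called higher. So were 6 of 7 spermatogonial markers, against 33.4% of all genes tested. With median-of-ratios size factors 7, 5, 5 and 5 of these were higher, and relative to the Sertoli list none was. That centring levels the Sertoli list by construction, so its own genes could hardly be called. It called 38 of all 15042 genes higher and 10770 lower, so the absence of higher markers in the other lists is near that share. The Sertoli list summed to 113 to 133 FPKM in yak and 556 to 605 in cattle-yak, the Leydig list to 3340 to 4864 and 10434 to 12423, the myoid list to 114 to 141 and 560 to 755, and the spermatogonial list to 74.7 to 91.8 and 314 to 378. Endothelial markers summed to 27.1 to 31.4 FPKM in yak and 26.6 to 43.3 in cattle-yak, with 2 called higher and 1 lower of 5, and macrophage markers to 71.0 to 88.8 and 63.6 to 84.4, with 3 higher and 1 lower of 5. The lower markers held much of the yak sums. VWF had 15.1 to 16.0 FPKM in yak and 2.48 to 4.66 in cattle-yak, and AIF1 had 56.5 to 69.5 and 2.75 to 4.23. The median share of the yak mean was 192% for the endothelial and 270% for the macrophage list. With size factors, none of the endothelial and 1 of the macrophage markers were higher, and 1 of each list was lower. Motile cilia also line the efferent ductules next to the testis. Of 6 markers of such multiciliated or rete epithelium 4 were tested, of which 2 were called lower and none higher. CCNO was at 0 in the yak libraries, PAX8 was at 1.45 FPKM or less in every library, and the list summed to 44.3 to 61.7 FPKM in yak and 3.54 to 6.16 in cattle-yak. DEUP1 made up most of the yak sum, with 36.9 to 55.5 FPKM. The part of such epithelium in the members' values was not tested.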

How the data were processed

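RNA-seq libraries of testis from 3 cattle-yak and 3 yak were analysed. According to the study's methods, the authors trimmed reads with Trimmomatic and aligned them with HISAT2 to the yak assembly LU_Bosgru_v3.0 for both groups. By the same methods, FPKM came from Cufflinks and read counts from HTSeq-count. Versions are not given in the sources used here. The FPKM values deposited by the authors carry no scaling between libraries beyond that to depth. Whole fragments were recovered from the steps of these values within 0.03 fragments in each of 17973 genes that had 2 or more nonzero values, which gave the depths. Genes were fitted with limma 3.58.1 in R 4.3.3 (variance trend, two-sided) over the whole table on log2 (FPKM + 1), and p-values were adjusted by Benjamini-Hochberg over the 15042 genes with a mean of at least 0.5 FPKM. The pseudocount makes fold changes of low genes too small. Replicates are separate animals. The recovery of fragments and the limma fit were tested on simulated data. In the simulation for limma few genes changed, up or down at random, so it does not bear on the choice of scaling. The kit marks strand, but the counting setting is not given, so overlapping genes may share reads.

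The members and lists were chosen with earlier results of these data known. Named with values in every library were, for each role, the most abundant member in yak and the one with the most negative fold change, further RSPH4A and RSPH6A, symbols on several rows, uncalled members, and the 5 highest and 5 lowest shares of the yak mean; of each partner list, the 2 lowest fold changes and uncalled genes. DRC1, CFAP126, the projection of the central pair, GAS8, WDR66, MAATS1 and FOXJ1 were singled out after their values were seen. Where a listed symbol stood on several rows, the most abundant was used. Alternatives were other pseudocounts, minimums, scalings, priors, voom and omission of each animal. Sequences and gene positions were not used here, and the planned search for promoter motifs was not run. Figures were drawn with matplotlib 3.10.9 in Python 3.11.15.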

Additional observations from a re-analysis of the deposited data

How the results depend on the processing

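Between 36 and 40 members were called lower, and none higher, under every alternative run. The 40 came with the Sertoli centring alone, which called 10770 of all 15042 genes lower and 38 higher. The 36 came with the spermatocyte centring, which called 2930 of all genes lower and 5528 higher. They came also with a minimum of 5 FPKM, where 38 members were tested. Omitting 1 animal at a time gave 37 to 38 lower members, and the median log2 fold change of the tested members ran from −2.96 to −2.64. This median moved by more than the spread between animals to −3.34 with median-of-ratios size factors, −4.98 when centred on the Sertoli list and −3.81 in voom with size factors, the last added after seeing the data. These scalings moved the median of all genes from 0.51 to 0.01, −1.65 and 0.01. CFAP20 turned from 0.02 to −2.14 relative to the Sertoli list, where it was called lower, and to −0.59 with size factors and −0.60 in voom with them, where it was not, and with each animal left out it ran from −0.030 to 0.066. Of the single members, CFAP300, CFAP47 and RSPH4A changed sides of the threshold under at least 1 alternative, and CFAP20 under the Sertoli centring alone. The causes were not tested. No paired analysis was possible because the labels give the animals different numbers in each group. Outlying values were not looked for in groups of 3. Depth limits RSPH4A, RSPH6A, CFAP73, CFAP157 and CFAP299, which had under 10 fragments in at least 1 cattle-yak library.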
